A study of Homo sapiens with 30 samples.

Results

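Expression of 8 genes of the complement system was followed across all libraries: the cascade components C3, CFB, C1R and C1S and the regulators SERPING1, CD55, CD46 and CD59. They were taken by gene symbol, each symbol belonging to 1 gene, and make up 8 of the 63138 genes counted. The cells were hCMEC/D3, an immortalised endothelial line from human brain microvessels, widely used in blood-brain barrier research, so every library came from 1 line. There were 10 groups of 3 libraries, all at 12 h. In the direct groups, Control cells had only serum-free medium, and the stimulated cells were exposed to 25 ng/mL of TNFα (TNF), 10 ng/mL of IL-1β (IL1b), 50 ng/mL of C5a, itself a product of complement activation (C5a), or 200 nM of epinephrine (Epinephrine). In the vesicle groups, named by the prefix EV, cells of the same line were given extracellular vesicles. These had been enriched from culture supernatants of cells under each of those 5 conditions, so that EV-Control marks vesicles of unstimulated cells. The labels do not give the vesicle dose or say whether enriched vesicles carried residual stimulus, and they do not say whether the 3 libraries of a group came from separate cultures, so p-values measure only the spread between these libraries.

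Complement is a set of plasma and surface proteins that mark targets for removal and can lyse membranes. In the classical pathway, C1q bound to a target activates the proteases C1R and then C1S, which start the assembly of an enzyme that cuts C3. In the alternative pathway, factor B (encoded by CFB) joins C3b to form a further C3-cutting enzyme, so that C3 and CFB together drive the amplification loop. Host cells are shielded by C1 inhibitor (encoded by SERPING1), which blocks C1R and C1S, by CD55, which speeds the decay of the C3-cutting enzymes, by CD46, a cofactor for the cleavage of C3b and C4b, and by CD59, which blocks the membrane attack complex. Most plasma complement is made in the liver, and endothelial cells also make several of these proteins, partly under the control of inflammatory cytokines.

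Libraries held 16643961 to 22112326 counts. All 8 genes passed the filter on low counts in the 3 reported fits, and a filter at a mean count of 50 removed SERPING1. Levels are given as CPM, counts scaled for library depth and composition, and differences as log2 fold changes with their standard error (SE). Tests were edgeR's quasi-likelihood test, two-sided, with Benjamini-Hochberg adjustment over all genes of the fit, and a gene was called at an adjusted p under 0.05. The endothelial markers fitted the label, with 10 of 10 at 1 CPM or more in all 10 groups and a sum of 682 to 1163 CPM. Of 8 mural markers, 4 to 5 reached 1 CPM, led by CSPG4 and PDGFRB, with a sum of 321 to 510.2 CPM. Of 4 epithelial markers, KRT18 and KRT8 did (sum 160 to 362 CPM), with EPCAM at or under 0.191 CPM as a group mean. Of 4 astrocyte markers only GFAP did (sum 1.40 to 5.77 CPM, with no count of AQP4), and of 8 microglial and leukocyte markers 0 to 2 did (sum 1.33 to 4.35 CPM, with no count of TYROBP). Of 6 hepatocyte markers 1 to 3 did, with a sum of 25.6 to 27.0 CPM in TNF, 17.45 to 21.1 CPM in IL1b and 4.56 to 8.67 CPM in the other 8 groups. SERPINA1 made up most of that sum, and ALB stayed at or under 0.0546 CPM. The part of these markers in the results was not tested. The Epinephrine replicate 2 and EV-Control replicate 1 libraries stood apart from their groups in places, and results that turn on them are given with and without them. In these bulk samples, fewer cells of a type and less RNA per cell cannot be told apart.

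TNF and IL1b raised the same 5 of the 8 genes, C3, CFB, C1R, C1S and CD55, and lowered CD46. TNF called 5 of 8 higher and 1 lower, where 52.7% of 15908 genes tested were called in either direction, 27.5% higher and 25.3% lower. IL1b also called 5 higher and 1 lower, against 46.6% of genes, 24% higher and 22.6% lower. The median log2 fold change of the 8 was 1.30 in TNF and 0.65 in IL1b, and over all genes tested it was -0.01 in each. C5a called 7 of 8 lower and none higher (22.6% of genes, 11.8% higher and 10.8% lower), with a median of -0.27. Epinephrine called 2 higher and 4 lower (25.2% of genes, 13.5% higher and 11.8% lower), with a median of -0.14. Treated and Control libraries were fully separate for 6 of the 8 genes in TNF (59.5% of all genes), 7 in IL1b (56.3%), 7 in C5a (40.4%) and 5 in Epinephrine (33.9%). Each stimulus was set against the same 3 Control libraries.

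In the vesicle groups C3, CFB and CD59 were each called in 3 of the 4 comparisons with EV-Control. EV-TNF called 1 higher and 3 lower against EV-Control (13.3% of 15918 genes, 5.9% higher and 7.42% lower), and EV-IL1b called 1 higher and 2 lower (14.6%, 6.49% higher and 8.14% lower). EV-Epinephrine called 5 lower and none higher (19.7%, 9.12% higher and 10.5% lower). EV-C5a called none of the 8 by edgeR or DESeq2, where edgeR called 0.0503% of genes, 0.0126% higher and 0.0377% lower, and 2 of the 8, C3 and CFB, had an unadjusted p under 0.05. EV-IL1b against EV-TNF also called none by either tool (0.00628% of genes, all higher), with C3 and C1S at an unadjusted p under 0.05. Groups did not overlap for 5 of the 8 genes in EV-TNF (27.1% of all genes), 5 in EV-IL1b (28.5%), 7 in EV-Epinephrine (34.1%), 1 in EV-C5a (11%) and 2 in EV-IL1b against EV-TNF (11.8%). Cells given control vesicles differed from cells in medium alone in 6 of the 8 genes, 1 higher and 5 lower (21.9% of 16691 genes, 12.1% higher and 9.8% lower), and the same number did not overlap (34.9% of genes).

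**Figure D1:**
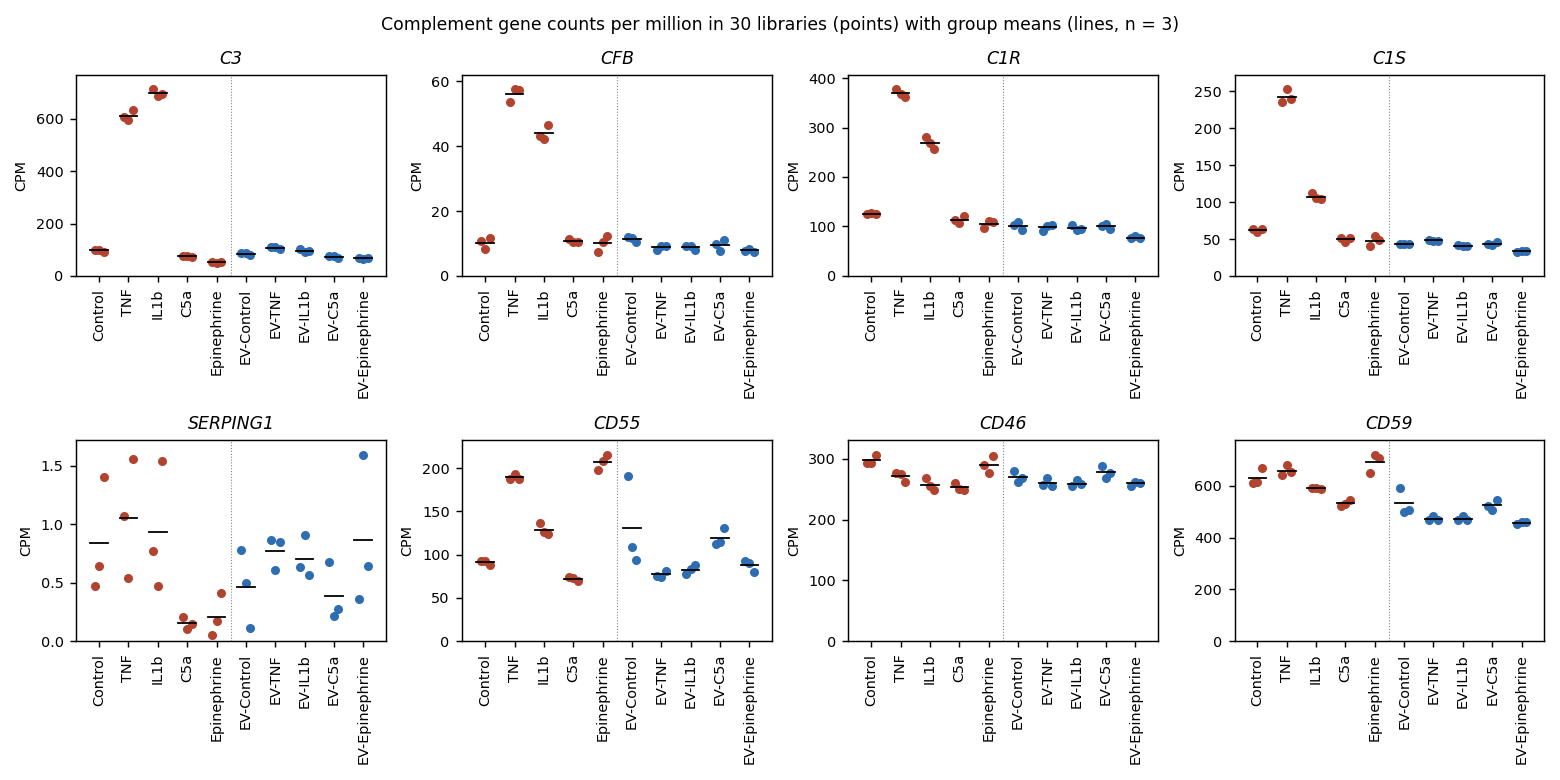
CPM of each of the 8 genes (vertical axes, 1 panel per gene) in the 10 groups (horizontal axis), with 1 point per library, direct groups in red and vesicle groups in blue, and a line at the mean of 3 libraries. C3, CFB, C1R and C1S stood highest in TNF and IL1b, CD55 in Epinephrine and TNF, and 1 EV-Control library of CD55 lay at 190.4 CPM, above the other 2 of its group.

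C3, the central component that all pathways cleave, showed the largest rise among the 8 genes under both cytokines. The gene lies on chromosome 19 (6677704 to 6730562, minus strand, GRCh38). Control libraries held 99.8, 100.8 and 91.2 CPM, TNF libraries 607, 596 and 632 CPM, and IL1b libraries 711, 687 and 693 CPM. The 3 groups did not overlap, and every IL1b library was above every TNF library. C3 rose 6.28-fold with TNF (log2 fold change 2.65, SE 0.048, adjusted p = 2.98e-32) and 7.21-fold with IL1b (log2 2.85, SE 0.048, adjusted p = 1.48e-32). C3 was the single gene of the 8 that was higher in IL1b than in TNF (log2 0.20, SE 0.044, adjusted p = 0.000321).

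C3 fell under both other stimuli. Epinephrine libraries held 51.7, 50.9 and 54.0 CPM, all below every Control library, and C5a libraries 77.5, 77.1 and 72.5 CPM, between the Epinephrine and Control libraries. The log2 fold change was -0.89 with Epinephrine (SE 0.050, adjusted p = 6.66e-16) and -0.35 with C5a (SE 0.048, adjusted p = 8.12e-07). Without Epinephrine replicate 2 the value was -0.87.

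With EV-TNF, EV-IL1b and EV-Epinephrine, C3 changed in the direction of the matching stimulus. EV-Control libraries held 88.6, 87.6 and 78.6 CPM, EV-TNF 110.5, 109.9 and 103.2 CPM, EV-IL1b 101.6, 90.5 and 94.1 CPM, EV-C5a 75.9, 74.8 and 67.2 CPM, and EV-Epinephrine 67.0, 66.0 and 66.8 CPM. All EV-TNF and EV-IL1b libraries were above all EV-Control libraries, and all EV-C5a and EV-Epinephrine libraries below them. C3 was called higher with EV-TNF (log2 0.34, SE 0.051, adjusted p = 9.87e-07) and with EV-IL1b (log2 0.17, SE 0.052, adjusted p = 0.0226), and lower with EV-Epinephrine (log2 -0.35, SE 0.053, adjusted p = 1.04e-06). The EV-IL1b call was lost without EV-Control replicate 3 (adjusted p = 0.167) or EV-IL1b replicate 1 (adjusted p = 0.201), and EV-C5a did not reach the threshold (log2 -0.22, 95% interval -0.33 to -0.12, adjusted p = 0.0882) unless EV-Control replicate 3 was left out (adjusted p = 0.0027) or no low-count filter was used (adjusted p = 0.0133). Control vesicles alone went with lower C3 than medium (log2 -0.20, adjusted p = 0.00179), a call that was lost without EV-Control replicate 3 (log2 -0.14, adjusted p = 0.0564).

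The difference between vesicle and direct response was tested as an interaction, the log2 change against EV-Control minus the log2 change against Control. Among the 8 genes, 6 were lower in the TNF interaction, where 44.7% of genes were called, 21.3% higher and 23.4% lower. For IL1b 1 was higher and 5 lower (35.2%, 16.9% higher and 18.3% lower), for C5a 3 were higher (11.9%, 5.87% higher and 6.05% lower), and for Epinephrine 2 were higher and 3 lower (24.2%, 11.7% higher and 12.5% lower). For C3 it was -2.31 with TNF (adjusted p = 9e-38), -2.67 with IL1b (adjusted p = 3.13e-40) and 0.55 with Epinephrine (adjusted p = 9.14e-09), so the vesicle response was the smaller one in all 3. With C5a it was 0.14 (95% interval 0.00 to 0.28, adjusted p = 0.22).

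CFB, which encodes the protease of the alternative pathway, rose with both cytokines. The gene lies in the class III region of the major histocompatibility complex on chromosome 6 (31945650 to 31952084, plus strand). RefSeq's promoter table for GRCh38.p14 holds a window of 250 bases before the start that RefSeq gives. That start lies inside the gene as GENCODE 29 draws it, and the window lies wholly in annotated CFB exon. It held 1 match each to the kappa B motif (bases -112 to -103 from the RefSeq start), the core of the interferon-stimulated response element (GAAA, any 2 bases, GAAA; -140 to -131) and the interferon gamma activated site (GAS, TTCNNNGAA; -92 to -84), searched on both strands. The stretch around the kappa B match is shown, since this motif is bound by the NF-κB factors that both cytokines are known to activate, with the match in capitals. It is chr6:31945973-31946002, bases -122 to -93, on the plus strand.
CFB kappa B: gcagctcagcGGGGCCCTCCcgcttggatg
Among 35114 windows of 250 bases in that table, 9.96% held a kappa B match, 3.02% the element core and 6.57% the GAS. Neither window of C1R, which both cytokines also raised, held a kappa B match. The GAS was not found in CFB alone, with a match in a window of C1R (-86 to -78) and in windows of CD59 (-128 to -120 and -184 to -176). The C/EBP motif (33.2% of windows) was searched too. It matched in both windows of C1R and in a window of CD59, and in none of CFB, CD55 or CD46. A match describes these letters and says nothing on binding in these cells.

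Control libraries held 10.6, 8.32 and 11.7 CPM of CFB, TNF libraries 53.5, 57.5 and 57.4 CPM, and IL1b libraries 43.0, 42.2 and 46.6 CPM. The lowest TNF library was above the highest IL1b library, and both groups were far above Control. CFB rose 5.49-fold with TNF (log2 2.46, SE 0.12, adjusted p = 2.65e-16) and 4.32-fold with IL1b (log2 2.11, SE 0.12, adjusted p = 2.75e-14), and was lower in IL1b than in TNF (log2 -0.35, SE 0.10, adjusted p = 0.00668). That last call was lost when libraries were scaled by total counts alone (log2 -0.15, adjusted p = 0.201). C5a (log2 0.10, 95% interval -0.18 to 0.38) and Epinephrine (log2 -0.01, 95% interval -0.29 to 0.27) gave no call, with libraries that overlapped Control. Of the exon bases of CFB, 45% are shared with a readthrough annotation on the same strand, AL645922.1, which had no count in any library, so how shared reads were assigned is uncertain.

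Cytokine vesicles did not raise CFB. EV-Control libraries held 12.1, 11.6 and 10.4 CPM, EV-TNF 7.92, 9.20 and 9.36 CPM, EV-IL1b 9.28, 9.28 and 8.03 CPM, and EV-Epinephrine 7.83, 8.37 and 7.46 CPM. All 9 of these vesicle libraries were below all 3 EV-Control libraries. CFB was called lower with EV-Epinephrine (log2 -0.53, SE 0.13, adjusted p = 0.00202), EV-TNF (log2 -0.37, SE 0.13, adjusted p = 0.0433) and EV-IL1b (log2 -0.36, SE 0.13, adjusted p = 0.0487). The EV-TNF and EV-IL1b calls stood near the threshold and were lost under DESeq2 (adjusted p = 0.0603 and 0.0645), without the low-count filter (adjusted p = 0.0577 and 0.0619), and without EV-Control replicate 1 or 2 or any of the 3 libraries of the vesicle group (adjusted p up to 0.204). Total counts (adjusted p = 0.0546 and 0.062) and replicate number as a block (adjusted p = 0.0501 and 0.0554) lost both calls too. So did fits of only the groups compared (adjusted p = 0.0657 and 0.0655) and of all 30 libraries (adjusted p = 0.0638 and 0.0725). The interaction for CFB was -2.82 with TNF (adjusted p = 5.74e-20) and -2.46 with IL1b (adjusted p = 6.93e-17), with the direct and vesicle changes of opposite sign. With Epinephrine it was -0.51 (adjusted p = 0.0409), and that call was lost without Epinephrine replicate 2 (adjusted p = 0.0553) or 3 (adjusted p = 0.255), Control replicate 2 (adjusted p = 0.154), EV-Control replicate 1 or 2, or EV-Epinephrine replicate 1 or 3. The same call was lost under total counts (adjusted p = 0.0549) and with only the groups compared (adjusted p = 0.106).

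**Figure D2:**
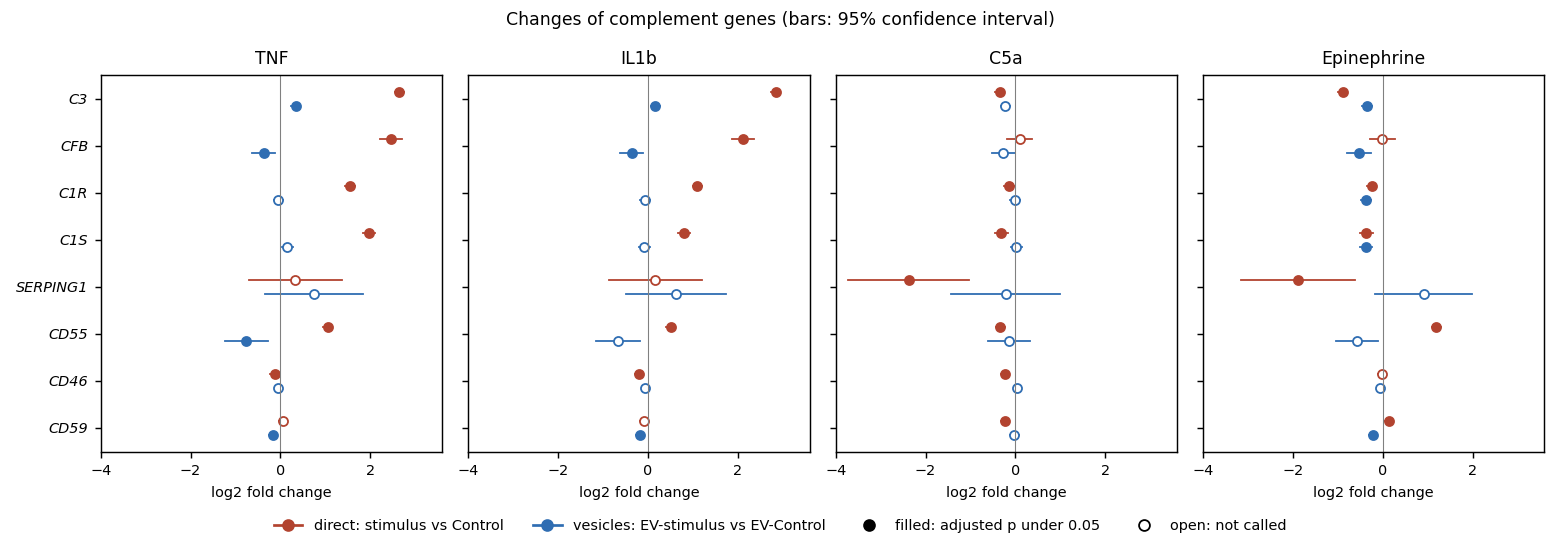
Log2 fold changes (horizontal axes) of the 8 genes (rows) in 4 panels, 1 per stimulus, with direct groups against Control in red and vesicle groups against EV-Control in blue. Points give the estimate (filled where called) and bars its 95% interval. C3 reached 2.65 and 2.85 in the direct cytokine groups and 0.34 and 0.17 in the matching vesicle groups.

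C1R and C1S, the neighbouring protease genes of the C1 complex on chromosome 12 (C1R 7080199 to 7092607, minus strand, and C1S 6988259 to 7071032, plus strand), both rose with the cytokines, and C1S rose less with IL1b than with TNF. Control libraries held 125, 127.1 and 126.2 CPM of C1R, TNF libraries 377, 368 and 362 CPM, and IL1b libraries 281, 268 and 257 CPM. For C1S the values were 63.4, 59.6 and 63.2 CPM in Control, 236, 253 and 239 CPM in TNF, and 112, 105 and 104 CPM in IL1b. In both genes the 3 groups were fully separate, in the order Control, IL1b, TNF.

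C1R rose 2.92-fold with TNF (log2 1.55, SE 0.051, adjusted p = 2.61e-24) and 2.15-fold with IL1b (log2 1.10, SE 0.051, adjusted p = 3.3e-19). C1S rose 3.91-fold with TNF (log2 1.97, SE 0.065, adjusted p = 3.29e-23) and 1.74-fold with IL1b (log2 0.80, SE 0.065, adjusted p = 4.47e-12). IL1b against TNF was -1.17 for C1S (SE 0.062, adjusted p = 4.67e-17) and -0.45 for C1R (SE 0.049, adjusted p = 1.83e-09). Between IL1b and TNF 5 of the 8 genes were lower and 1 higher, where 41.4% of genes were called (19.9% higher and 21.4% lower) and 6 of the 8 had no overlap (51.5% of genes), and C1S showed the largest of these differences. Exons of C1R overlap those of its neighbour C1RL over 11.4% of their bases, and those of C1S overlap EMG1 over 3.54%, so counts there may be shared.

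The ratio of the 2 protease genes also separated the cytokines. Per kilobase of exon, C1R stood above C1S in all 30 libraries, and the ratio of the 2 was 2.23 ± 0.0953 in Control (SD, n = 3), 1.67 ± 0.0789 in TNF and 2.76 ± 0.0368 in IL1b. The TNF ratios (1.60 to 1.76) were below those of every other library, and the IL1b ratios (2.73 to 2.80) were above every Control ratio (2.16 to 2.34). In C5a the ratio was 2.51 ± 0.0746 and in Epinephrine 2.43 ± 0.194, and in the vesicle groups the mean ran from 2.25 in EV-TNF to 2.59 in EV-IL1b. The ratio was looked at after the values of both genes were known and is given as a description, with no test.

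**Figure D3:**
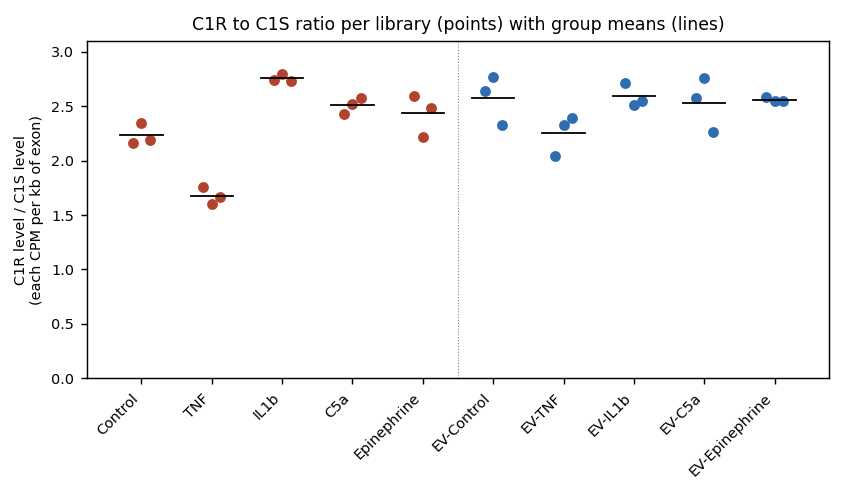
Ratio of C1R to C1S CPM per kilobase of exon (vertical axis) in the 10 groups (horizontal axis), with 1 point per library, direct groups in red and vesicle groups in blue, and a line at the mean of 3 libraries. The TNF libraries had the lowest ratios, 1.60 to 1.76.

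Epinephrine and C5a lowered both protease genes. Epinephrine libraries held 97.1, 110.2 and 109 CPM of C1R and 41.1, 54.5 and 48.1 CPM of C1S, all below Control. The log2 fold change was -0.25 for C1R (SE 0.052, adjusted p = 0.00037) and -0.37 for C1S (SE 0.068, adjusted p = 0.000114), and without Epinephrine replicate 2 it was -0.28 and -0.46. C5a libraries held 112, 106 and 122 CPM of C1R and 50.8, 46.3 and 52.0 CPM of C1S, again below Control. C1S fell by 0.31 on the log2 scale (SE 0.068, adjusted p = 0.000854), and C1R by 0.14 (SE 0.052, adjusted p = 0.0433), a call that was lost without Control replicate 1, 2 or 3 or C5a replicate 1 or 2 (adjusted p up to 0.279), without the low-count filter (adjusted p = 0.0979) and under total counts (adjusted p = 0.0534).

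Among vesicle groups C1R and C1S differed with EV-Epinephrine. EV-Control libraries held 103, 109 and 92.3 CPM of C1R and 42.8, 43.4 and 43.6 CPM of C1S. EV-Epinephrine libraries held 75.7, 79.8 and 77.4 CPM of C1R and 32.2, 34.4 and 33.3 CPM of C1S, without overlap. The log2 fold change was -0.38 for each gene (adjusted p = 8.42e-07 for C1R and 6.85e-06 for C1S), and the Epinephrine interaction was -0.13 for C1R (95% interval -0.28 to 0.03) and 0.00 for C1S (95% interval -0.18 to 0.18), neither called.

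No call was made for C1R or C1S with EV-TNF, EV-IL1b or EV-C5a. The largest of these values was that of C1S with EV-TNF (log2 0.15, 95% interval 0.03 to 0.27, adjusted p = 0.0892), in which the 3 libraries (49.2, 47.9 and 47.3 CPM) were above all EV-Control libraries. The interactions were -1.81 for C1S and -1.59 for C1R with TNF (adjusted p = 4.02e-27 and 5.72e-24), and -0.86 and -1.16 with IL1b (adjusted p = 2.1e-12 and 8.12e-18). C1S also had a C5a interaction of 0.34 (adjusted p = 0.00587). Control vesicles alone went with lower levels than medium in both, by -0.52 for C1S (SE 0.062, adjusted p = 1.25e-09) and -0.31 for C1R (SE 0.055, adjusted p = 1.4e-05).

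SERPING1, whose product inhibits C1R and C1S, was barely detected. The gene lies on chromosome 11 (57597387 to 57614853, plus strand). Its counts were 9, 12 and 25 in the Control libraries, 16, 10 and 27 in TNF, 15, 9 and 29 in IL1b, 4, 2 and 3 in C5a, and 1, 3 and 9 in Epinephrine. TNF (log2 0.33, 95% interval -0.71 to 1.36) and IL1b (log2 0.16, 95% interval -0.87 to 1.20) overlapped Control and gave no call. C5a was called lower (log2 -2.37, SE 0.67, adjusted p = 0.0079), on 9 counts over 3 libraries against 46, a ratio of 0.186 after scaling by library size (exact 95% interval 0.0802 to 0.386, counting error only). Epinephrine was called lower too (log2 -1.89, SE 0.62, adjusted p = 0.0234), on 13 counts against 46, a ratio of 0.268 (95% interval 0.133 to 0.504). Control replicate 3 held more counts than the other Control libraries, and without it neither call stood (adjusted p = 0.094 for C5a and 0.2 for Epinephrine). The Epinephrine call was also lost without Epinephrine replicate 1 (adjusted p = 0.114) or replicate 2 (adjusted p = 0.0528).

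In the vesicle groups SERPING1 held 2 to 28 counts per library, with overlap between every group and EV-Control (13, 9 and 2 counts) and no call. The Epinephrine interaction of 2.81 (SE 0.87, adjusted p = 0.0116) was lost without Control replicate 3 (adjusted p = 0.0723) or EV-Epinephrine replicate 2 (adjusted p = 0.117), the library with 28 counts.

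CD55, the decay-accelerating factor of the cell surface, was the regulator with the largest rises and the single gene of the 8 raised by TNF, IL1b and Epinephrine alike. It lies on chromosome 1 (207321376 to 207386804, plus strand). Its promoter window is shown because CD55 was the gene that epinephrine, whose β receptors signal through cAMP, raised most among the 8. The window, which like that of CFB overlaps exon of the gene in GENCODE 29, held 2 matches to TGACG, the core of the cAMP response element (CRE). On either strand 21.2% of the 35114 windows of 250 bases hold it, among them both windows of CD46, which Epinephrine did not change by the test, and 1 of 2 windows of C1R, which Epinephrine lowered, each with 1 match. No match to the kappa B motif, the element core or the GAS was in this window. Capitals mark the CRE cores in chr1:207321519-207321548, bases -159 to -130 from the start, and chr1:207321596-207321625, bases -82 to -53, on the plus strand of GRCh38.p14 in RefSeq's table.
CD55 CRE core, distal: ccccggggcgtaTGACGccggagccctctg
CD55 CRE core, proximal: tcccacccttggTGACGcagagccccagcc
The 5 genes found in that table were CD55, CD46, CFB, CD59 and C1R.

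Control libraries held 92.7, 92.5 and 88.6 CPM of CD55, Epinephrine libraries 198, 208 and 215 CPM, TNF libraries 187, 193 and 187 CPM, and IL1b libraries 136, 126 and 124 CPM. All 9 stimulated libraries were above all Control libraries, and Epinephrine libraries were above all TNF libraries. CD55 rose 2.28-fold with Epinephrine (log2 1.19, SE 0.048, adjusted p = 2.79e-19), 2.07-fold with TNF (log2 1.05, SE 0.049, adjusted p = 7.16e-20) and 1.42-fold with IL1b (log2 0.50, SE 0.049, adjusted p = 1.03e-10). CD55 had the smallest adjusted p of the 8 genes in the Epinephrine comparison. Without Epinephrine replicate 2 the log2 fold change was again 1.19. CD55 was lower in IL1b than in TNF (log2 -0.55, SE 0.048, adjusted p = 7.05e-12).

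C5a lowered CD55. Its libraries held 73.8, 72.5 and 70.0 CPM, all below Control, and the log2 fold change was -0.33 (SE 0.050, adjusted p = 4.96e-06). In a fit of all 30 libraries, which includes the EV-Control libraries, the same difference was not called (log2 -0.34, adjusted p = 0.136).

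In the vesicle comparisons of CD55, 1 library of EV-Control lay far above the others. EV-Control libraries held 190.4, 109.2 and 94.2 CPM, with replicate 1 in the range of the TNF libraries. EV-TNF libraries held 75.2, 74.7 and 81.6 CPM, EV-IL1b 77.2, 82.9 and 87.7 CPM, EV-C5a 112, 115 and 131 CPM, and EV-Epinephrine 92.6, 90.4 and 80.5 CPM. EV-TNF, EV-IL1b and EV-Epinephrine libraries were all below the lowest EV-Control library, while EV-C5a overlapped it.

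With all 3 EV-Control libraries, CD55 was called lower with EV-TNF (log2 -0.77, SE 0.22, adjusted p = 0.0413) and not with EV-IL1b (log2 -0.67, adjusted p = 0.0688) or EV-Epinephrine (log2 -0.57, adjusted p = 0.0943). Without replicate 1 the values were -0.40 for EV-TNF (adjusted p = 0.00346), -0.30 for EV-IL1b (adjusted p = 0.0238) and -0.21 for EV-Epinephrine (adjusted p = 0.0983). The EV-TNF call was lost without any 1 of the 3 EV-TNF libraries (adjusted p from 0.089 to 0.118). It was also lost with only the groups compared (adjusted p = 0.267), without the low-count filter (adjusted p = 0.0825) and with replicate number as a block (adjusted p = 0.0701). Without EV-Control replicate 3, EV-IL1b (adjusted p = 0.0147) and EV-Epinephrine (adjusted p = 0.0193) were called. Both were also called by DESeq2 (adjusted p = 0.02 and 0.0418) and in a fit of all 30 libraries (adjusted p = 0.00606 and 0.0124). CD55 was higher in EV-Control than in Control with EV-Control replicate 1 (log2 0.52, SE 0.16, adjusted p = 0.0183) and gave no call without it (log2 0.16, adjusted p = 0.0643). Nor was there a call without Control replicate 3 (adjusted p = 0.0538) or with only the groups compared (adjusted p = 0.339). No vesicle group showed the rise of the direct groups: the interaction was -1.81 with TNF, -1.16 with IL1b and -1.76 with Epinephrine (adjusted p = 4.46e-07, 0.000233 and 2.34e-06), and -1.45, -0.81 and -1.40 without EV-Control replicate 1, all called. With C5a the interaction was 0.21 (adjusted p = 0.647), and 0.55 without that library (adjusted p = 2.7e-06).

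CD46, the membrane cofactor protein, varied least among the detected genes, between 249 and 307 CPM over the 30 libraries. It lies on chromosome 1 (207752057 to 207795513, plus strand). Control libraries held 292.7, 293.4 and 307 CPM, and the C5a (261, 250.4 and 249 CPM), IL1b (268, 255 and 249 CPM) and TNF (277, 276 and 262 CPM) libraries were all below them. CD46 fell by 0.22 on the log2 scale with C5a (SE 0.045, adjusted p = 0.000282), by 0.20 with IL1b (SE 0.045, adjusted p = 0.000334) and by 0.13 with TNF (SE 0.045, adjusted p = 0.0125). Under total counts the TNF value was -0.41. The TNF call was lost without Control replicate 3 (adjusted p = 0.0644) or TNF replicate 3 (adjusted p = 0.0813). Epinephrine gave no call (log2 -0.03, 95% interval -0.12 to 0.06), and IL1b against TNF none (log2 -0.07, 95% interval -0.16 to 0.02), though scaling by total counts alone made CD46 higher in IL1b (log2 0.13, adjusted p = 0.0163).

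No vesicle comparison with EV-Control called CD46, and every 95% interval lay between -0.13 and 0.11 on the log2 scale. EV-Control was lower than Control (log2 -0.14, SE 0.040, adjusted p = 0.00674), a call lost without Control replicate 3 (adjusted p = 0.063) or EV-Control replicate 2 (adjusted p = 0.0648). The TNF interaction of 0.08 was not called (adjusted p = 0.268), and under total counts it was 0.37 (adjusted p = 1e-07). The interaction was 0.27 with C5a (adjusted p = 0.00043) and 0.15 with IL1b (adjusted p = 0.0313), the second of which was lost without Control replicate 3, IL1b replicate 2 or 3, EV-Control replicate 2 or 3 or EV-IL1b replicate 2 or 3 (adjusted p up to 0.132). This IL1b call was also lost without the low-count filter (adjusted p = 0.148).

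CD59, the inhibitor of the membrane attack complex, had the highest level of the 8 genes in Control and changed little. It lies on chromosome 11 (33703010 to 33736491, minus strand). Control libraries held 613, 614 and 669 CPM, and C5a libraries 521, 528 and 547 CPM, all lower. CD59 fell by 0.24 on the log2 scale with C5a (SE 0.044, adjusted p = 0.000106). Epinephrine libraries (648, 720.1 and 706 CPM) overlapped Control and were called higher (log2 0.14, SE 0.044, adjusted p = 0.017), a call that was lost in fits of only these 2 groups (adjusted p = 0.133) and without Control replicate 1 (adjusted p = 0.0847), Control replicate 2 (adjusted p = 0.102) or Epinephrine replicate 3 (adjusted p = 0.053), and was 0.11 without Epinephrine replicate 2 (adjusted p = 0.0228).

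The result for CD59 under the cytokines depended on the processing. TNF (log2 0.06, 95% interval -0.03 to 0.15) and IL1b (log2 -0.09, 95% interval -0.18 to 0.00) gave no call, while scaling by total counts alone called it lower in TNF (log2 -0.22, adjusted p = 2.96e-05) and in IL1b (log2 -0.17, adjusted p = 0.00105). IL1b was also called lower with a filter at a mean count of 50 (adjusted p = 0.024) and in a fit of only these 2 groups (adjusted p = 0.016). IL1b was lower than TNF (log2 -0.15, adjusted p = 0.0077), without a call and with the sign turned under total counts (log2 0.048, adjusted p = 0.346), and without a call when TNF replicate 2 was left out (adjusted p = 0.0581). Total counts moved the median of all genes by -0.28 in TNF and -0.08 in IL1b, and the rises of C3, CFB, C1R, C1S and CD55 in both cytokine groups were called under either scaling.

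Vesicle groups held less CD59 than EV-Control in 3 cases. EV-Control libraries held 590.2, 499.8 and 508 CPM, with replicate 1 again the highest, EV-TNF 470.0, 483 and 468 CPM, EV-IL1b 466, 483 and 467 CPM, and EV-Epinephrine 454, 461 and 460.3 CPM. None of these 9 libraries reached the lowest EV-Control library. The log2 fold change was -0.22 with EV-Epinephrine (adjusted p = 0.00126), -0.18 with EV-IL1b (adjusted p = 0.00968) and -0.17 with EV-TNF (adjusted p = 0.0122). Without EV-Control replicate 1 the values were -0.14 (adjusted p = 0.00168), -0.10 (adjusted p = 0.0534) and -0.09 (adjusted p = 0.0713), so of these 3 EV-Epinephrine stayed called. In fits of only the 2 groups compared none of the 3 was called (adjusted p = 0.0798 for EV-Epinephrine, 0.0992 for EV-IL1b and 0.0938 for EV-TNF). The EV-TNF call was also lost without EV-TNF replicate 1 (adjusted p = 0.0538) or 3 (adjusted p = 0.0804), and the EV-IL1b call without EV-IL1b replicate 1 (adjusted p = 0.0739). EV-Control was lower than Control by 0.25 (adjusted p = 1.09e-05), and by 0.32 without EV-Control replicate 1 (adjusted p = 1.79e-08). In a fit of only these 2 groups that difference was not called (log2 -0.24, adjusted p = 0.052). The interaction was -0.35 with Epinephrine (adjusted p = 9.54e-06), -0.23 with TNF (adjusted p = 0.00154, not called and 0.062 under total counts) and 0.22 with C5a (adjusted p = 0.00778), the last of which was lost without Control replicate 3 (adjusted p = 0.0619) or EV-Control replicate 2 (adjusted p = 0.0676) or 3 (adjusted p = 0.0508). This C5a call was also lost with only the groups compared (adjusted p = 0.135).

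Levels of different genes can be compared per kilobase of exon. In Control the order was CD59 at 61.0 CPM per kb, CD46 at 34.2, C1R at 21.4, CD55 at 15.4, C3 at 11.7, C1S at 9.60, CFB at 2.05 and SERPING1 at 0.233 CPM per kb. In IL1b, C3 was at the top with 83.7 CPM per kb, above CD59 at 57.1, and in TNF it stood at 73.4, with CD59 at 63.5 and C1R at 62.7 CPM per kb. CD59 and C1R differed in TNF by less than 1 CPM per kb. Among 16089 genes ranked by CPM per kb, C3 was at percentile 74.2 in Control, 96.2 in TNF, 97.5 in IL1b and 59.8 in Epinephrine.

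Over the means of the 10 groups, C1R and C1S had a Pearson correlation of log2 CPM of 0.98, CFB and C1R one of 0.983, C3 and CFB one of 0.957, and CD46 and C3 one of -0.231. These describe 10 points in which TNF and IL1b carry most of the spread. Of 11056 candidate genes, those most like C3 by this measure were SAA1 (0.986), SAA2 (0.982) and SLC12A2 (0.978). For CFB they were C15orf48 (0.986), NOD2 (0.986) and SLC25A22 (0.985), for C1S they were GPRC5B (0.993), STAT3 (0.99) and SMAD1 (0.99), and for C1R they were KIFC3 (0.99), SERPINA1 (0.987) and ATG7 (0.985). CD55 had other genes beside it, IGFBP3 (0.955), CREM (0.946) and ANGPTL4 (0.932). CD59 was most like SBDS (0.988), COL4A6 (0.979) and YIPF5 (0.959), CD46 like GLRX (0.927), MFSD11 (0.911) and CMTM6 (0.911), and SERPING1, on few counts, like MAPKBP1 (0.889), TPBG (0.868) and NOTCH1 (0.863). SAA1 and SAA2 are near-identical copies, so reads could be split between them.

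The rest of the pathway was read from a list of 52 other complement genes. All were in the table, 11 had no count in any library, and 10 reached a mean of 5 CPM in some group. Of 10 recognition genes (C1q subunits, ficolins, collectins), 5 had no count in any library and 2, COLEC11 and COLEC12, were tested. TNF called 3 of 23 tested genes higher and 10 lower, with a list median of -0.39, and 52.7% of all genes were called (27.5% higher and 25.3% lower). IL1b called 3 higher and 9 lower, with a median of -0.45, against 46.6% of all genes (24% higher and 22.6% lower). Taken in either direction, both counts are near the share over all genes. By direction they are not, with more lower calls and fewer higher calls in the list than those shares. C5a called 3 higher and 5 lower (22.6% of all genes, 11.8% higher and 10.8% lower). Epinephrine called 2 higher and 2 lower (25.2%, 13.5% higher and 11.8% lower). Of 20 tested in the vesicle groups, EV-TNF and EV-IL1b each called 1 higher and 2 lower. Over all genes these comparisons called 13.3% (5.9% higher and 7.42% lower) and 14.6% (6.49% higher and 8.14% lower). EV-Epinephrine called 1 higher and 4 lower (19.7%, 9.12% higher and 10.5% lower), and EV-C5a none by edgeR (0.0503%). Control vesicles against medium called 1 of 24 higher and 7 lower (21.9%, 12.1% higher and 9.8% lower).

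Among the named genes of this list, C3AR1, the receptor for the C3a fragment of C3, rose from 1.40 ± 0.637 CPM in Control to 10.7 ± 0.959 CPM in TNF (SD, n = 3, log2 2.93, adjusted p = 1.19e-13) and to 3.44 ± 0.313 CPM in IL1b (log2 1.30, adjusted p = 3.9e-05). C5, which starts the terminal pathway, fell from 13.8 ± 0.475 to 5.57 ± 0.646 CPM in TNF (log2 -1.31, adjusted p = 4.26e-11) and to 9.17 ± 0.911 CPM in IL1b (log2 -0.58, adjusted p = 7.6e-05). CLU, which encodes clusterin, an inhibitor of the terminal complex, fell by 0.79 with TNF and by 0.40 with IL1b, and also with the vesicles EV-TNF (-0.29), EV-IL1b (-0.43) and EV-Epinephrine (-0.58). THBD, which encodes thrombomodulin, fell by 0.46 with TNF (0.74 under total counts), by 0.45 with IL1b and by 0.25 with C5a, and also with EV-TNF (-0.39), EV-IL1b (-0.42) and EV-Epinephrine (-0.62). C5AR1, the receptor for C5a, fell in cells given C5a from 4.74 ± 0.677 to 2.35 ± 0.387 CPM (adjusted p = 0.000145).

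Among further genes of the list, CD93, a surface glycoprotein first described as a C1q receptor, fell by 0.61 with TNF and by 0.38 with IL1b and rose by 0.27 with EV-Epinephrine, and MASP1, a lectin-pathway protease, fell by 0.53 and by 0.88 with the same cytokines. C1QBP, a binding protein for C1q heads, rose by 0.72 with IL1b (adjusted p = 3.28e-13) and by 0.39 with TNF, the latter without a call under total counts (log2 0.12, adjusted p = 0.0653). C1RL, the neighbour of C1R, rose by 0.26 with TNF (adjusted p = 0.000308), with no call and the sign turned under total counts (log2 -0.01), and fell by 0.33 with each of C5a and Epinephrine.

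**Figure D4:**
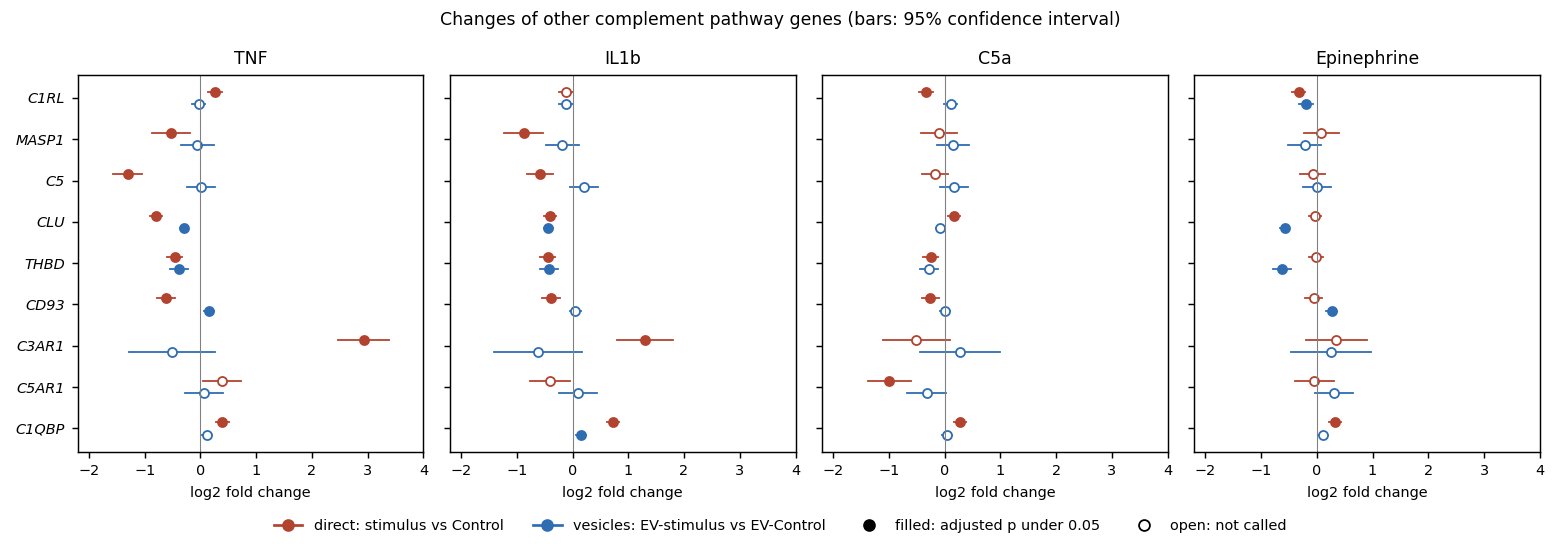
Log2 fold changes (horizontal axis) of 9 genes of the wider complement list (rows) in 4 panels, 1 per stimulus, direct groups against Control in red and vesicle groups against EV-Control in blue. Points give the estimate (filled where called) and bars its 95% interval. C3AR1 lay at 2.93 and 1.30 and C5 at -1.31 and -0.58 in the direct TNF and IL1b groups.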

How the data were processed

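RNA was measured in 30 libraries (10 groups of 3), each prepared from 1 ng of total RNA (NEBNext Ultra kit, per the labels' protocols). The authors deposited one table of raw counts per Ensembl gene. Per the submitters' processing notes, STAR, FastQC, DESeq2 and R 4.4.1 were used with hg38; the counting program, annotation and use of strand are not given in the sources used here. All 30 libraries carry 1 batch number. Of 63147 lines, 4 had no gene ID (0.000789% to 0.00164% of counts) and were left out, 2 gene lines had no counts, and 3 repeated lines were dropped, leaving 63138 genes. Positions are from GENCODE 29, in which 58124 of these genes were found.

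Counts were tested in R 4.3.3 with edgeR 4.0.16 (filterByExpr, trimmed mean of M-values factors, robust quasi-likelihood fit, Benjamini-Hochberg adjustment, threshold 0.05), in fits of 15 direct libraries (15908 genes), 15 vesicle libraries (15918) and all 30 (16691, for EV-Control against Control and the interactions). The steps were tested on simulated direct libraries, with the same dispersion for all genes. In TNF against Control, 36 of 50 changes of 1.5-fold and 38 of 50 of 2-fold were called. So were 50 of 50 of 3-fold and 49 of 50 of 5-fold, with 3 false calls. Vesicle comparisons and interactions were not simulated. CPM use factors from all 30 libraries, and exon length is the union of GENCODE exons. Correlations used log2 CPM (prior count 2). The 8 genes, the list of 52 and the markers were chosen with earlier results of these data known. All 8 were to be named throughout, other complement genes if a group mean reached 5 CPM (1 of these is not reported here), and for each of the 8 the 3 genes with the highest correlation. Alternatives were relative log expression factors, total counts, no low-count filter, a mean count of 50, DESeq2 1.42.0, replicate number as a block, fits restricted to the compared groups or widened to all 30 libraries, and leaving out each library. No replicate pair agreed within sampling noise (chi-square per gene 2.04 to 12.94). Intervals on counts cover counting error only, since no molecular identifiers are described.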

Additional observations from a re-analysis of the deposited data

Results flagged for a closer look

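The vesicle response of a gene, taken as its log2 change against EV-Control, differed from its direct response against Control by edgeR's interaction test in these cases. For TNF the difference (vesicle minus direct) was -2.31 for C3, -2.82 for CFB, -1.81 for C1S, -1.59 for C1R, -1.81 for CD55 and -0.23 for CD59. For IL1b it was -2.67 for C3, -2.46 for CFB, -0.86 for C1S, -1.16 for C1R, -1.16 for CD55 and 0.15 for CD46. For C5a it was 0.34 for C1S, 0.27 for CD46 and 0.22 for CD59. For Epinephrine it was 0.55 for C3, -0.51 for CFB, 2.81 for SERPING1, -1.76 for CD55 and -0.35 for CD59. Some of these calls were lost when certain single libraries were left out, as given above. They were CFB and SERPING1 for Epinephrine, CD46 for IL1b and CD59 for C5a. Under total counts the TNF value of CD59 turned sign and was not called, and the Epinephrine call of CFB was lost (adjusted p = 0.0549). With only the groups compared, the calls of CFB for Epinephrine (adjusted p = 0.106) and CD59 for C5a (adjusted p = 0.135) were lost. Without the low-count filter, that of CD46 for IL1b was lost (adjusted p = 0.148).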

How the results depend on the processing

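For the 8 genes, 1813 alternative values were computed for 120 results. Of these, 1705 kept their side of the threshold, 90 lost a call with the same sign, 16 gained one, and 2 lost a call and turned sign, those of CD59 under total counts (0.048 for IL1b against TNF and 0.062 for the TNF interaction). A further 48 alternatives turned the sign of a value that was not called, and 2 of these were then called, CD59 in TNF (-0.22) and CD46 in IL1b against TNF (0.13), both under total counts. The calls of C3, CFB, C1R, C1S and CD55 in TNF and IL1b against Control held under all alternatives run.

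Of 229 alternative counts of genes called among the 8, 11 moved by over 1.5 times. EV-TNF against EV-Control, 4 by the reported fit, gave 2 without the low-count filter, 1 with only the groups compared and 1 to 4 when a library was left out. EV-IL1b, 3 by the reported fit, gave 0 with only the groups compared and 0 to 3 when a library was left out. EV-C5a gave 1 without the filter, and 0 to 1 when a library was left out. Over all genes, the calls ran from 2 to 175 for EV-C5a and from 0 to 23 for EV-IL1b against EV-TNF. The cause was not tested.

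Once group means were taken out, no same-numbered pair of libraries from different groups correlated above 0.1, and no differently numbered pair did. This cannot show whether replicate numbers pair samples. With a replicate block, EV-TNF called 2 of the 8 genes, EV-IL1b 2 and C5a 6, and the other counts were as reported.

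Scaling by total counts changed the share of higher genes among all calls from 52.1% to 22.7% in TNF, 51.5% to 38.6% in IL1b, 48.1% to 76.1% in IL1b against TNF, 46.4% to 60.2% in EV-Epinephrine, 55.3% to 42.6% in EV-Control against Control, 47.7% to 76.7% in the TNF interaction and 48.1% to 62.4% in that of IL1b. SERPING1, with 1 to 29 counts a library, is limited by depth.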
